A study of Rattus norvegicus with 9 samples.

Results

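Transcranial focal stimulation (TFS) passes a current through electrodes placed on the scalp. It has been studied in rats as a way to limit seizures without surgery. Expression 4 h after a single session was compared in the hippocampus of healthy male rats. The stimulated animals had received 300 Hz and 50 mA for 5 min, and sham animals were handled alike without current. Each group has 3 arrays of bilateral hippocampus, so 6 of the 9 arrays of the study enter the comparison. The other 3 arrays hold parietotemporal cortex of sham rats and stay out of the test. They enter an alternative fit and the 9-array means that set the signal filter, the signal groups and the background range. The sources used here do not give strain or age. Nothing in them ties each array to an animal of its own, so the p-values reflect only how these arrays vary.

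The hippocampus holds densely packed granule cells in the dentate gyrus and pyramidal cells in the CA fields, with scattered interneurons, glia and vessels between them. Strong firing of these neurons is known to switch on immediate early genes such as Fos, Egr1 and Arc, whose transcripts then decay within hours. Genes of the circadian clock, of the glucocorticoid response and of protein folding also respond to handling, stress or activity in this tissue.

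The deposited table has 68842 transcript clusters beside its controls. Those with exactly 1 gene symbol gave 22093 genes, each read from its brightest row, and 15522 genes with a 9-array mean of at least 4.99 on the log2 scale were tested. Array medians ran from 4.95 to 5.04, and positive control probe sets lay 3.73 to 4.0 log2 units above negative ones. The shortest such distances, 3.73 and 3.80, belonged to sham arrays 1 and 2. Of the negative controls 95% had a mean under 7.57. Genes with a lower 9-array mean are described as within the background range, which holds for 11056 of those tested. Arrays differed by a root mean square of 0.078 to 0.126 within a group and 0.095 to 0.132 between groups. The leading principal component held 34.6% of the variance. It placed sham array 1 at -10.60 and the other arrays between -1.56 and 4.33, so it did not divide stimulated from sham tissue. Component 2 (22.8%) did not divide them either. Component 3 (19.5%) did, with the sham arrays at 0.34 to 5.94 and the TFS arrays at -5.33 to -2.24.

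No gene passed an adjusted p under 0.05 in limma's test of the 6 arrays, which is 0% of those tested. At an adjusted p under 0.1 there were 2 (0.0129%), Sri and H3f3b. An unadjusted p under 0.05 was reached by 1035 genes (6.67%), of which 925 (5.96%) had the higher mean after TFS and 110 (0.709%) the lower. The arrays of the groups did not overlap for 1517 genes (9.77%): the TFS arrays were the higher for 1330 (8.57%) and the lower for 187 (1.2%). An exact test of 3 arrays against 3 cannot give a p below 0.1 for any single gene.

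The differences were small. The median size over the genes tested was 0.031 on the log2 scale and the largest was 0.86. A difference of 1.5-fold or more was measured for 6 genes, and 1.2-fold or more for 65. The 95% confidence interval reached a median of 0.0904 to either side, and for 99.4% of the genes the whole interval lay within a 1.5-fold difference in either direction. Of the genes tested, 11056 were within the background range and 6019 held an identical value on 3 or more arrays. Both limit what these intervals can show.

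Bright genes leaned upwards. With the tested genes put in 10 groups of equal size by 9-array mean signal, the median difference ran from -0.0096 in the dimmest group to 0.054 in the brightest. It was above 0 for 9485 of the 15522 genes tested and for 1334 of 1553 in the brightest group. These counts are the background for the members above 0 in each gene list below. In the brightest group 21.4% of genes had an unadjusted p under 0.05 with the higher mean after TFS, and 0.19% with the lower. In the dimmest these shares were 0.84% and 1.1%. Among the 4466 genes above the background range, 621 (13.9%) reached that p with the higher mean after TFS and 15 (0.336%) with the lower. The lean followed the arrays: over the brightest group the median deviation from the 6-array mean was -0.062 for sham array 1, -0.0053 for sham array 2, -0.0081 for sham array 3, and 0.022 to 0.030 for the TFS arrays. Of the genes at an unadjusted p under 0.05, 89.4% had the higher mean after TFS as deposited, 68.8% after each array was centred on its median and 58.0% after quantile normalization of the tested genes. Sham array 1 also had the shortest distance between positive and negative controls, 3.73, and the part of that in the lean was not tested.

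**Figure D1:**
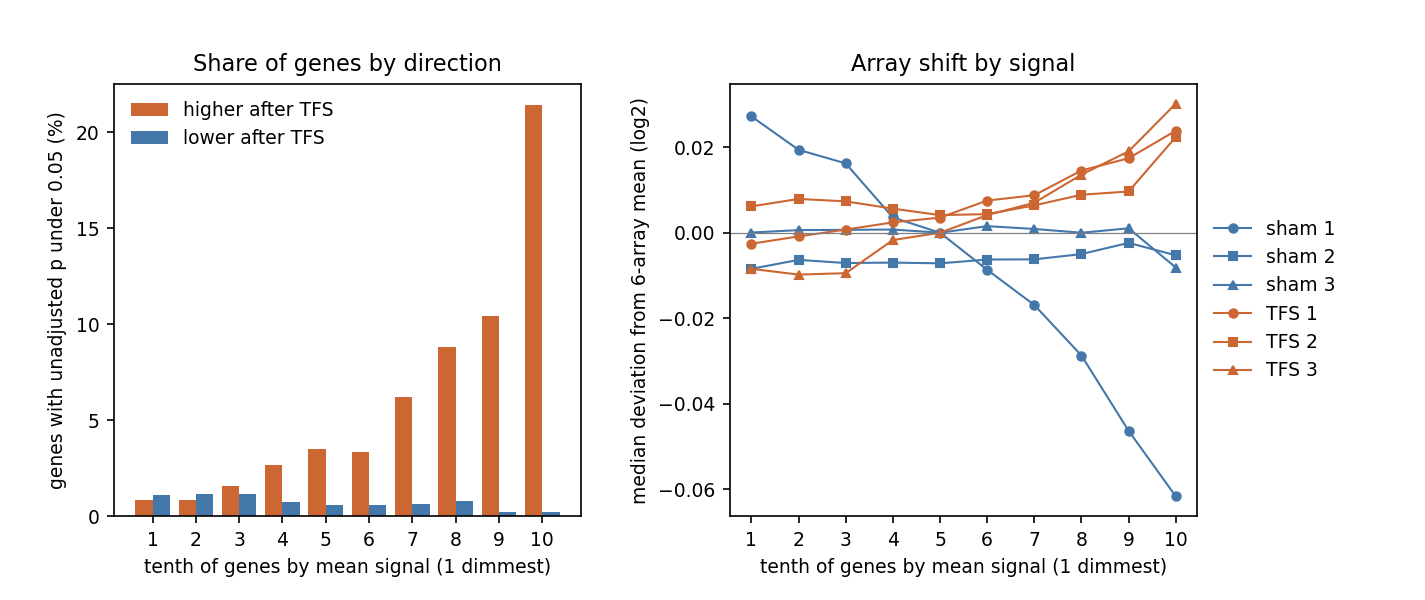
Left, share of genes in each of 10 groups by 9-array mean signal (1 the dimmest) with an unadjusted p under 0.05 in limma, split by which group had the higher mean. Right, median deviation of each array from the 6-array mean in the same groups (log2 units, circle, square and triangle for arrays 1, 2 and 3). The share with the higher mean after TFS reaches 21.4% in the brightest group, where sham array 1 sits at -0.062 and the 3 TFS arrays between 0.022 and 0.030.

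The smallest p-values belonged to genes with tight arrays rather than large differences. Sri encodes sorcin, a calcium-binding protein that regulates ryanodine receptors. Its signal was 9.78, 9.78 and 9.75 on sham arrays 1, 2 and 3 and 10.02, 10.04 and 10.04 on the TFS arrays. The groups stood well apart, with a difference of 0.26 (95% confidence interval 0.23 to 0.29, 1.197-fold, adjusted p = 0.0852 in limma). H3f3b encodes the replacement histone H3.3. It read 7.15 on all 3 sham arrays, an identical value to the last digit, and 7.32, 7.34 and 7.33 after TFS. The difference was 0.18 (0.15 to 0.21, adjusted p = 0.0852). Median polish, the last step of RMA, can leave an identical value on several arrays, and near-identical H3.3 copies elsewhere in the genome could share its probes.

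The next 6 genes with the higher mean after TFS had an adjusted p of 0.134. Rassf4, of the Ras association domain family, read 6.46, 6.49 and 6.50 in sham tissue and 6.76, 6.77 and 6.72 after TFS, a difference of 0.27. Ypel4 differed by 0.20, Tspy26 by 0.19 and Nt5dc3 by 0.18. Sprn, which encodes the prion-like protein Shadoo, differed by 0.14. Ivd, an enzyme of leucine breakdown, differed by 0.13. Hid1, which acts in the sorting of dense core vesicles, and the neuronal gene Brinp1 followed at an adjusted p of 0.254, with differences of 0.13 and 0.18. Like H3f3b, Hid1 held an identical value on all 3 sham arrays (8.56), which gives that group an SD of 0. For all 10 genes the arrays of the groups did not overlap. Their differences kept their sign after median centring and after quantile normalization, where that of Sri was 0.20 and that of H3f3b 0.16. The genes were picked by p in this fit, so neither trait is separate support for them. H3f3b, Rassf4 and Tspy26 were within the background range and the other 7 above it.

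In the other direction Fos had the smallest p and is described with the immediate early genes. Sln encodes sarcolipin, an inhibitor of the calcium pump of the sarcoplasmic reticulum. It read 5.95, 5.86 and 5.93 in sham tissue against 5.67, 5.66 and 5.69 after TFS. The difference was -0.24 (adjusted p = 0.254) at a signal within the background range. Vwa3a, Dynlt5, Zmynd12, Set-ps11, Ubtd2, LOC102547700 and LOC102555601 differed by -0.07 to -0.12 and LOC102552412 by -0.29, with adjusted p-values of 0.301 to 0.422. All of these were within the background range too, and Vwa3a held an identical value, 6.07, on all 3 TFS arrays.

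**Figure D2:**
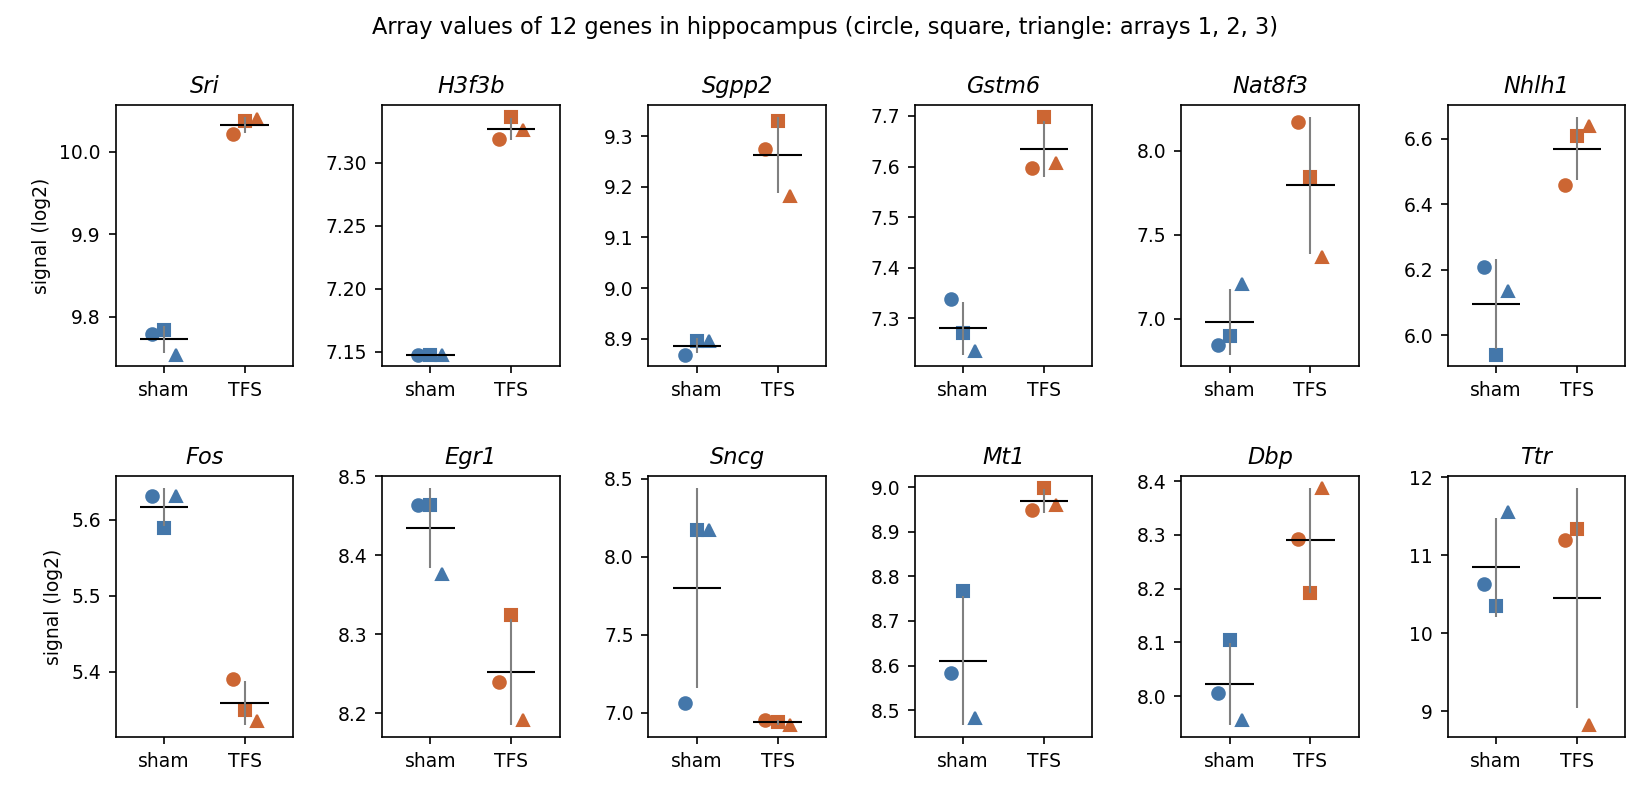
Signal (log2) of 12 genes on each hippocampal array, sham in blue and TFS in orange, with circle, square and triangle for arrays 1, 2 and 3. Horizontal lines are group means and vertical lines the SD of 3 arrays, and each panel has its own axis, which does not start at 0. In every panel except that of Ttr the groups do not overlap, and for Sncg the sham group is split between 7.06 on array 1 and 8.17 on arrays 2 and 3.

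Among genes whose arrays did not overlap, the largest difference upwards was that of Nat8f3, of the N-acetyltransferase family related to Nat8. It read 6.84, 6.90 and 7.21 in sham tissue and 8.17, 7.84 and 7.36 after TFS. The groups did not overlap but the TFS arrays were widely spread, and the difference was 0.81 (0.22 to 1.40, 1.75-fold, adjusted p = 0.572). Its relative Nat8f4 read 5.34, 5.14 and 5.11 against 5.66, 5.84 and 5.62, a difference of 0.51 within the background range (adjusted p = 0.322). Probes of these paralogs could bind both transcripts, so the rows may not be independent.

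Other wide differences upwards came with unequal certainty. Sgpp2, a phosphatase of sphingosine-1-phosphate, read 8.87, 8.90 and 8.89 in sham tissue and 9.28, 9.33 and 9.18 after TFS. That difference of 0.38 (0.27 to 0.48, adjusted p = 0.254) was more than the spread within either group. Nhlh1, a neuronal transcription factor of the basic helix-loop-helix class, read 6.21, 5.94 and 6.14 against 6.46, 6.61 and 6.64, a difference of 0.48 (adjusted p = 0.342). Acsm5, a mitochondrial acyl-CoA synthetase, differed by 0.59 (0.14 to 1.05) and Depp1 by 0.52 (0.16 to 0.89), both within the background range. Chi3l1, a secreted chitinase-like protein, differed by 0.37 and the zinc finger gene Zbtb14 by 0.35, each with an interval that included 0. Nhlh1 and Zbtb14 were within the background range too, whereas Sgpp2 and Chi3l1 were above it.

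Downwards, Sncg had the largest difference of all genes tested. It encodes gamma-synuclein, which in hippocampus marks a class of interneurons. The sham arrays read 7.06, 8.17 and 8.17, and the TFS arrays 6.95, 6.94 and 6.92. Sham array 1 was thus close to the stimulated tissue and the other sham arrays were not. The difference was -0.86 (-1.70 to -0.02, adjusted p = 0.728). Without sham array 1 it was -1.23 with an adjusted p of 0.00178 in limma, the only gene called when any array was left out. Without sham array 2 or 3 it was -0.68 (adjusted p = 0.713 and 0.692), and over all alternatives the adjusted p ran from 0.00178 to 0.951. Of the 16 interneuron markers 8 had a difference above 0 and 8 below, with a median of 0.011 that turned below 0 after quantile normalization. Lamp5, a marker of neurogliaform interneurons, lay the other way from Sncg at 8.91, 8.97 and 8.99 against 9.13, 9.15 and 9.02, a difference of 0.14 without overlap (adjusted p = 0.613). Sst differed by 0.09, Vip by -0.07 and Gad2 by less than 0.01 in size.

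Smaller differences downwards were measured for secreted and signalling genes. Cxcl12, a chemokine, read 8.15, 8.04 and 8.01 in sham tissue and 7.91, 7.75 and 7.76 after TFS, a difference of -0.26 (adjusted p = 0.483). Cartpt, which encodes the CART neuropeptide, read 7.06, 7.12 and 7.17 against 6.75, 6.90 and 6.92, a difference of -0.26 (adjusted p = 0.428). Cdkn1a, the cell cycle inhibitor p21, differed by -0.27, and Fcrl2, an Fc receptor-like gene, by -0.32. The uncharacterised LOC102556390 differed by -0.25. All but Cxcl12 were within the background range.

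The row annotated to the miRNA gene Mir674 was in the same set. It read 6.70, 6.53 and 6.52 on the sham arrays and 6.27, 6.29 and 6.37 after TFS, a difference of -0.27 (-0.42 to -0.13, adjusted p = 0.428). The annotation names the gene and not a precursor or mature form. Its mature 5p strand is shown because the seed, in capitals (bases 2 to 8), is the stretch through which a miRNA pairs with its targets. RefSeq places it on the plus strand of build GRCr8 at chr3:124507180-124507201.
rno-miR-674-5p: gCACUGAGaugggaguggugua

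The immediate early genes are known to be the first to respond to a burst of firing. Of 23 members tested, 12 had a difference above 0 and 11 below, with a median of 0.018 against 0.011 for all genes, and the sign of that median turned after quantile normalization. At an unadjusted p under 0.05 there were 3 with the lower mean after TFS (Fos, Egr1 and Arc), against 0.709% of all genes. With the higher mean there was 1 (Jun), or 4.35% of the list against 5.96% of all genes. None of the 23 had an adjusted p under 0.05.

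Fos, a subunit of the AP-1 transcription factor, read 5.63, 5.59 and 5.63 on the sham arrays and 5.39, 5.35 and 5.34 after TFS. All stimulated arrays were lower, at a signal within the background range, and the difference was -0.26 (-0.31 to -0.20, adjusted p = 0.134). Its partner Jun lay the other way, at 7.88, 7.99 and 8.004 against 8.17, 8.17 and 8.10, a difference of 0.19 (adjusted p = 0.477). Egr1, a zinc finger transcription factor induced by synaptic activity, read 8.46, 8.46 and 8.38 against 8.24, 8.32 and 8.19. This was well above the background range, with a difference of -0.18 (-0.30 to -0.07, adjusted p = 0.506). Arc, which controls the removal of AMPA receptors from synapses, read 8.23, 8.26 and 8.29 against 8.18, 8.21 and 8.18, a difference of -0.07 (adjusted p = 0.537). Npas4, a transcription factor specific to neuronal activity, overlapped between the groups, with a difference of -0.12. Fosb, Junb, Egr2, Nr4a2 and Dusp6 differed by 0.02 to 0.03. These signs held after median centring and quantile normalization for Fos, Jun, Egr1, Arc and Npas4.

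The promoter of Egr1 is printed because its response to activity is known to run through CArG boxes, which bind serum response factor, and cyclic AMP response elements. The 300 bases from RefSeq start 250 bases before the gene's start, on the plus strand of GRCr8 at chr18:26736828-26737127. Capitals mark 2 CArG boxes and 2 copies of TGACG, the core of the cyclic AMP response element, read on either strand. Of 33469 promoters of this length, 1.64% hold a CArG box and 21.2% hold TGACG on either strand. A match describes the letters only.
Egr1: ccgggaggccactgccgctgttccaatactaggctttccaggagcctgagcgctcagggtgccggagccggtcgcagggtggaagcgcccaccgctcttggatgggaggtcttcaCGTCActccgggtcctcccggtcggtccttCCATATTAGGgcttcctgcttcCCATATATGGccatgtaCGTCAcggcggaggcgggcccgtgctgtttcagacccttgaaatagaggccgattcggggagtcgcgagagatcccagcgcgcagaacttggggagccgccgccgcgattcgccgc

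Genes that follow the early wave were mostly level. Of 22 later activity-regulated genes tested, 14 had a difference above 0, with a median of 0.025 that turned below 0 after quantile normalization. At an unadjusted p under 0.05 there were 2, both with the higher mean after TFS (9.09%). That share was 5.96% of all genes and 13.9% of those above the background range, which hold 11 of the 22. Sorcs3, a sorting receptor of the postsynapse, read 7.67 on each sham array and 7.81, 7.76 and 7.82 after TFS, a difference of 0.13 (adjusted p = 0.322). Penk, the enkephalin precursor, read 7.44, 7.43 and 7.44 against 7.68, 7.68 and 7.48. TFS array 3 was thus close to the sham arrays, and the difference was 0.18 (adjusted p = 0.676). Bdnf, the neurotrophin most studied in activity, read 5.45 to 5.46 on all 6 arrays, with a value shared by 4 of them, so this row could not show a difference. Pdyn, the dynorphin precursor, differed by 0.22 with overlapping arrays.

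Receptors of glutamate differed little. Among 14 AMPA receptor subunits and auxiliary proteins the median was 0.029, which turned just below 0 after quantile normalization. Cacng3, an auxiliary subunit that carries AMPA receptors to the surface, read 9.79, 9.84 and 9.83 in sham tissue and 10.04, 9.95 and 10.17 after TFS, a difference of 0.23 (adjusted p = 0.522). Of the 7 NMDA receptor subunits 2 reached an unadjusted p under 0.05 with the higher mean after TFS, against 5.96% of all genes. Both are in the brightest signal group, where that share was 21.4%. Grin2b read 10.45, 10.46 and 10.46 against 10.59, 10.53 and 10.61 (difference 0.12, adjusted p = 0.419), and Grin1, the obligatory subunit, differed by 0.07. The list median was -0.017, and 0.038 without sham array 1. The metabotropic receptor Grm8, presynaptic and inhibitory, was at 5.64, 5.66 and 5.68 against 5.56, 5.35 and 5.46, a difference of -0.21 within the background range (adjusted p = 0.537). No member of the kainate receptor list reached an unadjusted p under 0.05.

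Genes that move glutamate out of the synapse leaned the same way. All 11 tested members of the glutamate transport and glutamine cycle list had a difference above 0, with a median of 0.063, 0.046 after quantile normalization and 0.042 over genes of like signal. At an unadjusted p under 0.05 with the higher mean after TFS there were 3 (27.3% of the list, against 5.96% of all genes). All 3 are in the brightest signal group, where that share was 21.4%. After quantile normalization 1 member reached that p with the higher mean. Slc1a1, the neuronal glutamate transporter, read 8.94, 8.93 and 8.93 in sham tissue and 9.06, 9.03 and 9.10 after TFS (difference 0.13, adjusted p = 0.322). Slc1a3, an astrocyte transporter, differed by 0.11 and held an identical value, 10.23, on all 3 sham arrays. The glutamine transporter Slc38a1 differed by 0.10. Slc17a7, which loads glutamate into vesicles, differed by 0.04, and by -0.02 after quantile normalization.

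Inhibitory genes differed little. No GABA-A receptor subunit of 9 tested reached an unadjusted p under 0.05. Gad1, which makes GABA, read 9.496, 9.496 and 9.212 against 9.49, 9.48 and 9.496, so that its difference of 0.09 rested on sham array 3 and was -0.0076 without it. Gad2 read 9.30, 9.28 and 9.18 against 9.31, 9.18 and 9.27. Gabbr1, a GABA-B receptor subunit, differed by 0.06 without overlap (adjusted p = 0.633). It was the only 1 of 8 members of the GABA synthesis, transport and GABA-B list at an unadjusted p under 0.05. That is 12.5% of the list, against 5.96% of all genes with the higher mean after TFS. The share was 13.9% among genes above the background range, which hold 7 of the 8. Abcb1a and Abcb1b encode P-glycoprotein, a pump that removes antiseizure drugs from the brain. Abcb1a read 7.25 on 4 of the arrays and differed by 0.08. Abcb1b read 6.65, 6.79 and 6.72 against 6.83, 6.84 and 6.84, a difference of 0.11 (adjusted p = 0.667). Both were within the background range.

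Ion channel and amine receptor lists held a few members without overlap. The TFS arrays lay above for 3 of 29 potassium and HCN, 1 of 7 sodium and 2 of 8 calcium channel subunits. They did so for 3 of 27 members of the amine and cholinergic receptor list. Over all genes the share was 8.57%, and it held for 861 of the 4466 genes above the background range. Kcnip2, which sets the A-type potassium current with Kv4 channels, read 10.68, 10.67 and 10.66 in sham tissue and 10.79, 10.92 and 10.88 after TFS (difference 0.19, adjusted p = 0.33). Its relatives Kcnip4 and Kcnip3 differed by 0.13 and 0.14, with overlapping arrays for Kcnip3. Of the 29 potassium and HCN channel subunits, 3 (10.3%) reached an unadjusted p under 0.05, all with the higher mean after TFS, against 5.96% of all genes and 13.9% of those above the background range. The list median was 0.050. The sodium channel subunits Scn2b and Scn3b differed by 0.09 and 0.13, with overlapping arrays for Scn3b. Htr1a, an inhibitory serotonin receptor of pyramidal neurons, read 8.08, 8.08 and 8.15 against 8.27, 8.48 and 8.28, a difference of 0.24 (adjusted p = 0.537). The muscarinic receptor Chrm1 differed by 0.10.

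Synaptic and neuronal genes, most of them bright, shared the upward lean. Of 28 synaptic vesicle and release genes 27 had a difference above 0, beside 1334 of 1553 genes in the brightest signal group. The list median of 0.069 was 0.013 after quantile normalization and 0.019 over genes of like signal. Syt4, a synaptotagmin of dense core vesicles, read 9.38, 9.41 and 9.51 in sham tissue and 9.59, 9.58 and 9.59 after TFS (difference 0.16, adjusted p = 0.482). The synapsins Syn2 and Syn1, which tether vesicles, differed by 0.13 and 0.12. Of 26 postsynaptic genes 23 had a difference above 0, with a median of 0.037 that turned just below 0 after quantile normalization. Nrgn, a calmodulin-binding protein of spines, differed by 0.10 and the adhesion gene Nlgn3 by 0.12.

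General neuron markers gave the highest share of members at an unadjusted p under 0.05, 6 of 15 (40%), all with the higher mean after TFS, and in 8 of 15 the TFS arrays lay above the sham arrays without overlap. Over all genes these shares were 5.96% and 8.57%, but the markers are bright. In the brightest signal group 21.4% of genes reached that p with the higher mean. In that group the TFS arrays lay above the sham arrays without overlap for 435 of 1553 genes. Stmn2, a microtubule regulator of growing neurites, read 11.20, 11.23 and 11.24 against 11.38, 11.34 and 11.37, a difference of 0.14 (0.10 to 0.19, adjusted p = 0.289). Rbfox3, the NeuN antigen, differed by 0.08 and the neurofilament gene Nefh by 0.15. The list median of 0.075 was 0.014 after quantile normalization and 0.022 over genes of like signal. In bulk tissue a change in the share of a cell type and a change in RNA per cell cannot be told apart.

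Many markers of the principal cells were within the background range, 7 of 12 tested for dentate granule cells and 7 of 16 for the CA fields. Dentate granule cell markers had the highest list median, 0.108 over 12 genes, 0.065 after quantile normalization, and 0.057 without sham array 1. Of the 12 markers 10 had a difference above 0 and 2 below. Beside Nhlh1, those above 0 included Dsp, which encodes desmoplakin (difference 0.16, within the background range), Prox1 (0.09) and Calb1 (0.11). Prox1 read 7.88, 7.88 and 8.12 in sham tissue and 8.01, 8.05 and 8.09 after TFS, with sham array 3 above every stimulated array. Of 16 CA field markers 15 had a difference above 0 (median 0.064, 0.035 after quantile normalization). Mas1, a receptor of the angiotensin system, read 6.31, 6.31 and 6.33 against 6.46, 6.53 and 6.61 (difference 0.21 within the background range, adjusted p = 0.342), and Dkk3, related to Wnt inhibitors, differed by 0.21.

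The circadian clock turns on a loop in which Clock and Bmal1 activate the Per and Cry genes, whose products then repress them, with Dbp and Hlf as output factors. Of 21 clock genes tested 18 had a difference above 0, with a median of 0.063, 0.034 after quantile normalization. At an unadjusted p under 0.05 there were 4 with the higher mean after TFS (19.0%). That share was 5.96% of all genes and 13.9% of those above the background range, which hold 14 of the 21. There was 1 with the lower mean (0.709% of all genes). Dbp read 8.01, 8.11 and 7.96 in sham tissue and 8.29, 8.19 and 8.39 after TFS, a difference of 0.27 (0.10 to 0.43, adjusted p = 0.499). Hlf read 8.27, 8.44 and 8.53 against 8.70, 8.57 and 8.70, a difference of 0.24 (adjusted p = 0.674). Per2, within the background range, differed by 0.10 and Cry2 by 0.08, both without overlap. Bmal1, of the activating limb, read 6.91, 6.90 and 6.96 against 6.82, 6.76 and 6.86, a difference of -0.11 (adjusted p = 0.564), within the background range. The sources used here give no time of day for the dissections.

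Stress and folding genes were in the same range. Sgk1, a kinase induced by glucocorticoids, read 7.88, 7.73 and 7.75 in sham tissue and 8.02, 8.16 and 7.98 after TFS, a difference of 0.27 (adjusted p = 0.493). Fkbp5, a co-chaperone of the glucocorticoid receptor and a usual reporter of its activity, read 7.499 on 4 of 6 arrays and differed by 0.03. Of 21 genes of the glucocorticoid list 3 (14.3%) reached an unadjusted p under 0.05 with the higher mean after TFS (Mt1, Sgk1 and Fam107a). That share was 5.96% of all genes and 13.9% of those above the background range, which hold 10 of the 21. With the lower mean there was 1 (Cdkn1a). Xbp1, a transcription factor of the unfolded protein response, read 10.07, 10.02 and 10.04 against 10.28, 10.33 and 10.15, a difference of 0.21 (adjusted p = 0.498). Pdia6, a disulfide isomerase, differed by 0.16 and the stress sensor Atf6 by 0.10. The 21 endoplasmic reticulum stress genes had a median of 0.064, 0.043 after quantile normalization, and 17 of 18 cytosolic heat shock genes had a difference above 0. The heat shock proteins Hsp90ab1 and Hspa8 differed by 0.10 and 0.07.

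Mt1 encodes metallothionein 1, which binds zinc and copper. It read 8.58, 8.77 and 8.48 on the sham arrays and 8.95, 9.00 and 8.96 after TFS. The TFS arrays were close together and above every sham array, with a difference of 0.36 (0.16 to 0.55, 1.28-fold, adjusted p = 0.442), and 0.20 with all rows of the gene averaged. Its promoter is shown because metal response elements, through which zinc acts on this gene, are a textbook case. The 300 bases from RefSeq lie on the minus strand of GRCr8 at chr19:10832926-10833225. Capitals mark 6 matches to the core of that element, searched as TGCGCNC or TGCACNC on both strands, which 24.2% of promoters of this length also hold at least once.
Mt1: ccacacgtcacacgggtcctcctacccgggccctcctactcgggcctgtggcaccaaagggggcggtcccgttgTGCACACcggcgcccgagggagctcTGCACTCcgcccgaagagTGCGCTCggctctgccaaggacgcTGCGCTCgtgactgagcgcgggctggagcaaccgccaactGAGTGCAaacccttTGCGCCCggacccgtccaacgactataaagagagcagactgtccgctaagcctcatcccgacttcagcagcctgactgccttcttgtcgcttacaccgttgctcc

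Among enzymes that conjugate glutathione, Gstm6 stood out from its family. It read 7.34, 7.27 and 7.23 in sham tissue and 7.60, 7.70 and 7.61 after TFS, a difference of 0.35 within the background range (0.25 to 0.46, adjusted p = 0.254). The related Gstm7 differed by 0.14 and Gstm1 by 0.03, and probes of this gene family could bind several members. Mgst1, a microsomal glutathione transferase, read 6.32, 6.65 and 6.63 against 6.93, 6.70 and 6.91, a difference of 0.31, also within that range (adjusted p = 0.719). Of 18 transferases tested, 3 (16.7%) reached an unadjusted p under 0.05, all with the higher mean after TFS. That share was 5.96% of all genes and 13.9% of those above the background range, which hold 8 of the 18. The list median was 0.063, 0.045 after quantile normalization. Of 22 antioxidant genes 1 reached that p, the thioredoxin reductase Txnrd1, with a difference of 0.04.

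Genes of cell death and inflammation were mostly within the background range, which limits what their rows can show. Of 17 apoptosis regulators 14 were within that range, and 9 had a difference above 0. With the higher mean after TFS 1, Apaf1 (difference 0.10), reached an unadjusted p under 0.05, which is 5.88% against 5.96% of all genes. None of the 10 tested inflammatory mediators or the 12 reactive astrocyte genes did so. All 10 of these mediators and 9 of the 12 astrocyte genes were within the background range, and 12 other mediators were under the signal floor. Gfap, the astrocyte filament gene, read 9.13, 9.36 and 9.48 in sham tissue and 9.25, 9.26 and 9.39 after TFS. Aif1, a microglial marker within the background range, read 5.64 to 5.69 on all arrays, with a value shared by 4 of them. Vim, the filament vimentin, differed by 0.27 with overlapping arrays.

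Energy genes were bright and moved by little. All 16 vacuolar proton pump subunits had a difference above 0, with a median of 0.038, which was 0.0020 after quantile normalization. Atp6v1a, the catalytic subunit, read 10.51, 10.57 and 10.55 in sham tissue and 10.65, 10.67 and 10.67 after TFS (difference 0.12, adjusted p = 0.322). Of 45 oxidative phosphorylation subunits 38 had a difference above 0, with a median of 0.035 that turned to -0.012 after quantile normalization. Only Sdha, of complex II, and Cox8a, of complex IV, reached an unadjusted p under 0.05 in that list, with differences of 0.08 and 0.07. That is 4.44% of the list, against 5.96% of all genes with the higher mean after TFS. The share was 13.9% among genes above the background range, which hold 38 of the 45. Cox8a was within the background range.

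Across all 43 lists, 38 medians lay above 0 and 5 below, and no list held a called gene. Relative to genes of like signal 27 lay above 0 and 16 below. The sign turned in 4 lists after median centring, in 12 after quantile normalization and in 3 without sham array 1.

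**Figure D3:**
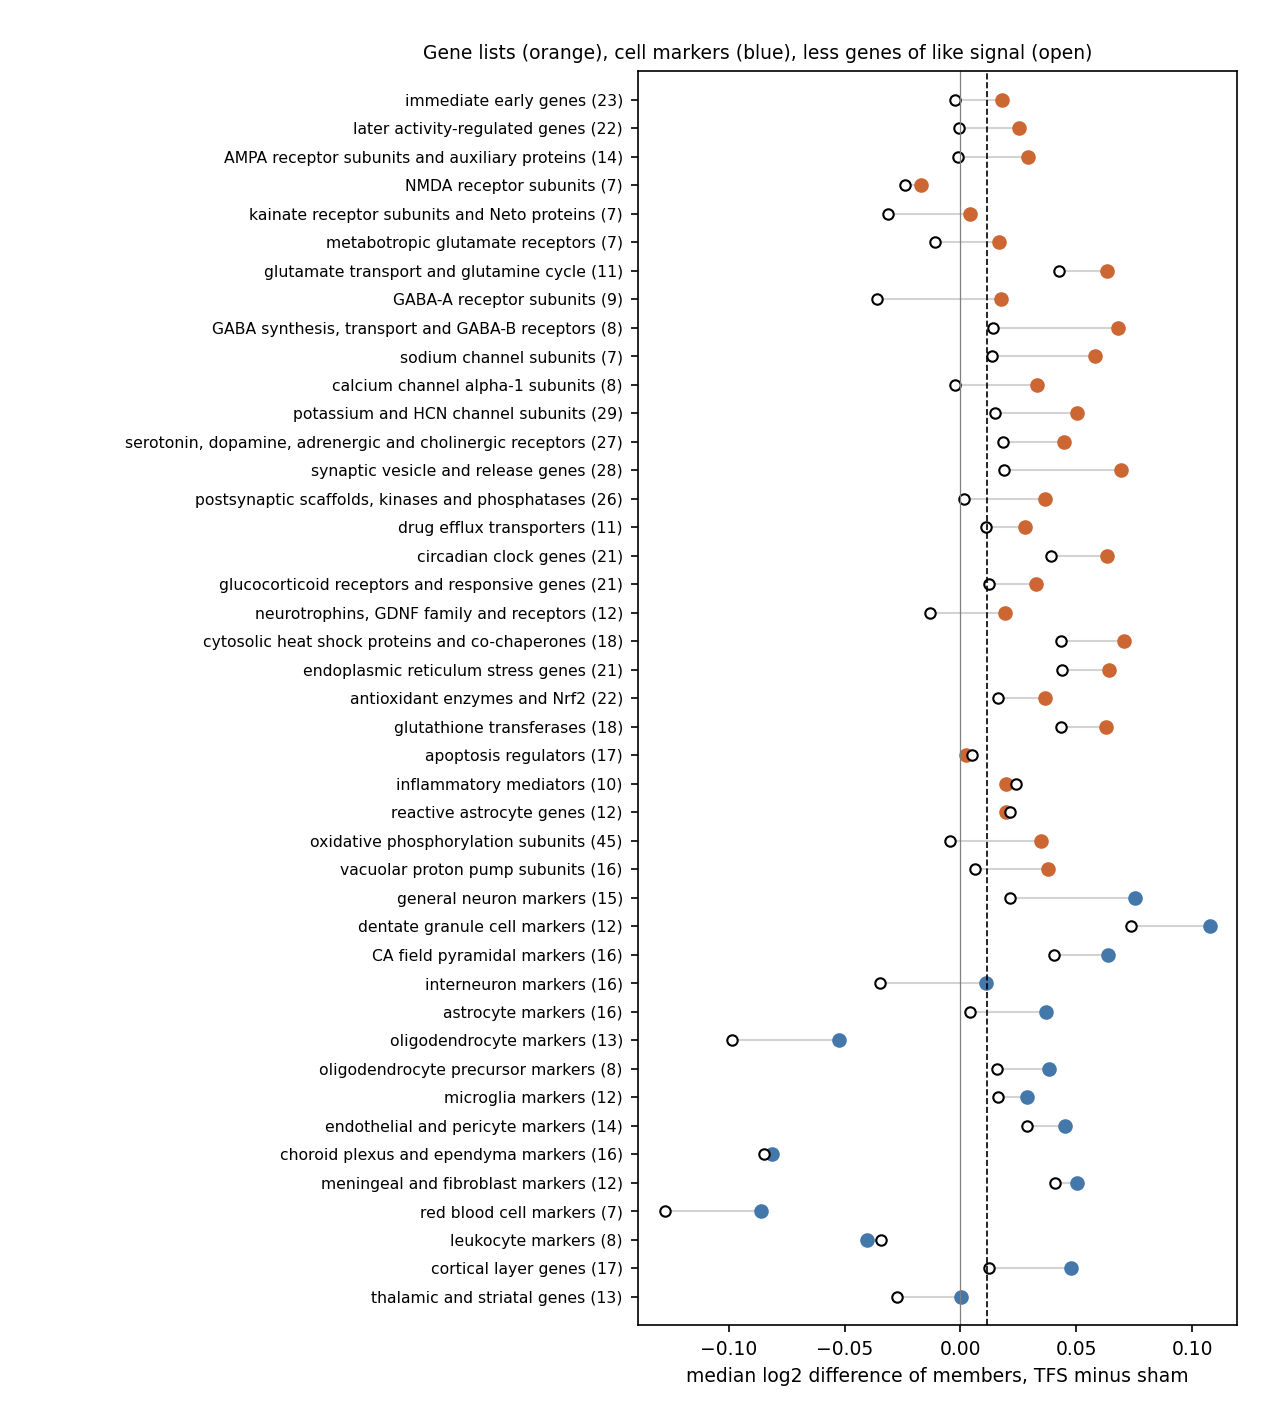
Median difference, TFS minus sham (log2), over the tested members of 43 gene lists, with the number of members in parentheses. Filled points are medians as deposited (pathways orange, cell markers blue), open points are medians after subtracting that of genes of like signal, and the dashed line is the median of all genes, 0.011. Filled medians run from -0.086 for red blood cell markers to 0.108 for dentate granule cell markers.

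Glial and vascular markers were compared as part of the check of the tissue. Of 16 astrocyte markers 15 had a difference above 0 and 5 (31.2%) reached an unadjusted p under 0.05 with the higher mean after TFS, against 5.96% of all genes and 13.9% of those above the background range, with a list median of 0.037, 0.013 after quantile normalization. Gpr37l1, a receptor of astrocytes, read 9.68, 9.72 and 9.69 in sham tissue and 9.86, 9.83 and 9.82 after TFS (difference 0.14, adjusted p = 0.285). Olig2, a factor of the oligodendrocyte lineage, read 7.61, 7.49 and 7.61 against 7.72, 7.78 and 7.75, a difference of 0.18 (adjusted p = 0.473). The markers of mature oligodendrocytes lay the other way, 10 of 13 below 0 with a median of -0.052 (0.0072 without sham array 2), and none reached an unadjusted p under 0.05. Mbp, a myelin protein gene, differed by -0.06. No microglial or endothelial marker reached that p.

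Genes of the choroid plexus had the widest spread between arrays of a group. Ttr encodes transthyretin, made by the choroid plexus. It read 10.64, 10.35 and 11.56 on the sham arrays and 11.19, 11.34 and 8.82 after TFS, with a within-group SD of 1.096. Its difference was -0.40, and 0.42 without TFS array 3. Kl, the klotho gene of the same epithelium, read 7.16, 6.82 and 8.55 against 8.17, 8.33 and 5.73. Mfrp, F5, Clic6, Slc4a5, Slc13a4 and LOC102552389 were also among the 10 genes of widest spread and had their lowest value on TFS array 3. The mean level of the 16 tested choroid plexus and ependyma markers ranged from 6.31 to 6.93 in sham tissue and from 5.89 to 6.78 after TFS. Its list median of -0.081 was 0.128 without TFS array 3 and 0.054 without sham array 3. The part of these cells in the other results was not tested.

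Blood varied as well. Hbb-b1, a beta-globin gene, read 8.63, 9.83 and 10.51 on the sham arrays and 9.00, 8.85 and 9.15 after TFS, and globin copies could share its probes. All 7 tested red blood cell markers had a difference below 0, with a median of -0.086, but it was 0.065 without sham array 3 and -0.401 without sham array 1. The mean level of these markers was 7.45, 8.06 and 8.47 on sham arrays 1, 2 and 3 and 7.72 to 7.81 after TFS.

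The other miRNA row named by its spread was Mir325, on the X chromosome. It read 4.55, 6.02 and 4.16 in sham tissue and 5.65, 6.00 and 5.65 after TFS, so sham array 2 matched the stimulated arrays and the other sham arrays did not. The difference was 0.85 (-0.46 to 2.17, adjusted p = 0.779), within the background range. RefSeq lists both mature strands on the minus strand of GRCr8, the 3p at chrX:74523537-74523558 and the 5p at chrX:74523574-74523596. Capitals again mark the seed, which the strands do not share with each other or with rno-miR-674-5p.
rno-miR-325-3p: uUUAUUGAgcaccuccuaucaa
rno-miR-325-5p: cCUAGUAGgugcucaguaagugu

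**Figure D4:**
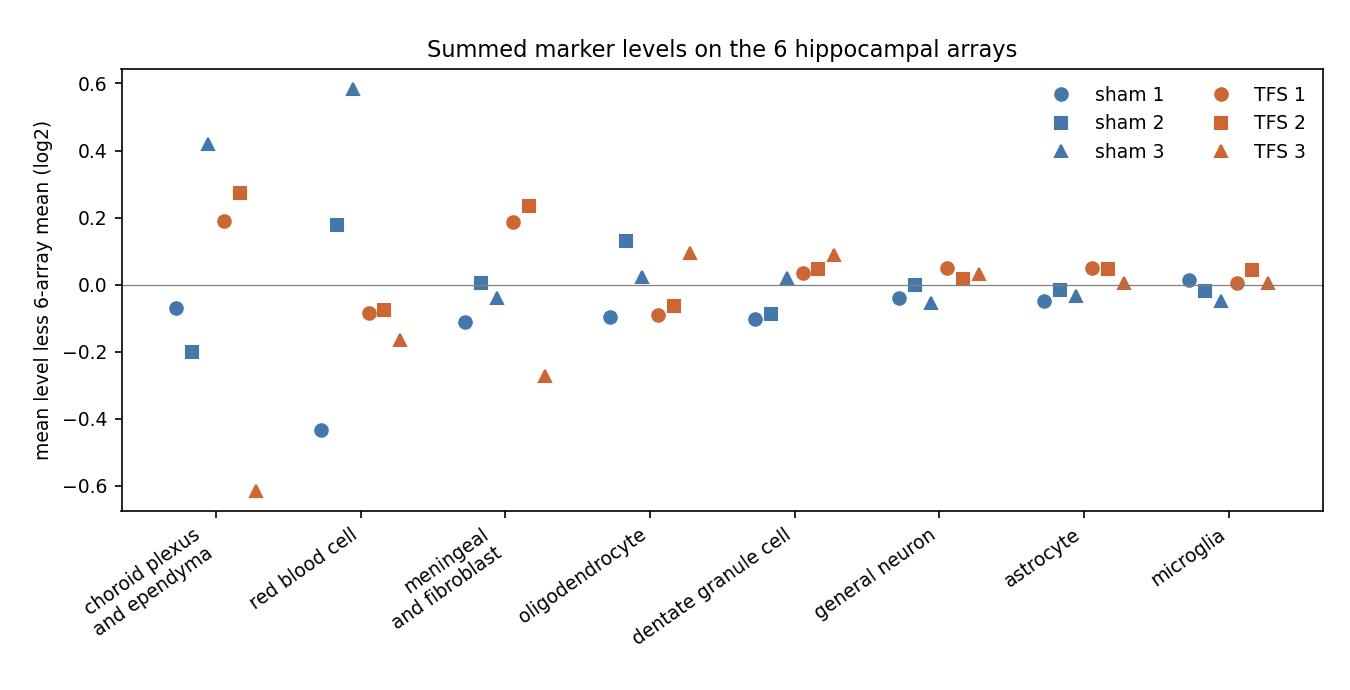
Mean level of the tested markers of 8 cell types on each hippocampal array, as the deviation from the 6-array mean (log2), sham in blue and TFS in orange. Choroid plexus and red blood cell markers spread over the widest range, with TFS array 3 lowest for choroid plexus and sham arrays 1 and 3 at the ends for red blood cells.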

How the data were processed

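Total RNA was hybridised to Clariom D rat arrays after labelling with the GeneChip WT Plus kit, per the labels' protocols. The deposited log2 values, 1 per transcript cluster, were used as the authors gave them. RMA and limma are the tools named in the submitters' processing notes. The genome build and the version of the annotation were not given in the sources used here. The platform annotation gave 1 symbol for 23446 of 68842 rows, several for 505 and none for 44891. Of these, 22077 had an Entrez identifier in RefSeq, through which 1 symbol was updated. The 1738 control rows were left out of the test.

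Samples were grouped by their titles. Genes whose mean over all 9 arrays reached the median over rows (4.99) were fitted on the 6 hippocampal arrays by lmFit and eBayes of limma 3.58.1 (R 4.3.3), with a mean per group, 4 residual degrees of freedom and 1.08 from the prior. Tests are two-sided and adjusted by Benjamini-Hochberg over 15522 genes. The fit was tested on simulated data. Arrays have no read depth, and their number limits the precision. Median polish left an identical value on 3 or more arrays for 6019 genes.

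The genes named are the 10 with the smallest p and the 10 with the largest difference without overlap in each direction, the 10 of widest spread within groups, of each list at most 4 members, by smallest p, and a fixed set. Gene lists hold 761 symbols and members were chosen with earlier results of these data known. A few further list members are named after their values were seen: Fosb, Junb, Egr2, Nr4a2, Dusp6, Pdyn, Cry2, Prox1, Calb1 and Gstm1. Same-numbered TFS and sham arrays did not deviate together (correlations -0.287 to -0.025, against -0.134 to 0.264 for unlike numbers), so no pairing was used. Alternatives were other filters, scalings, variance models and row rules, leaving out shared values, the number as a block, all 9 arrays, other thresholds, and leaving out each array.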

Additional observations from a re-analysis of the deposited data

How the results depend on the processing

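Beside the 0 genes called as reported, limma called 0 with all 9 arrays in the fit, with each other filter, scaling, variance model and row rule, and over every transcript cluster row (chosen after seeing the data). An adjusted p under 0.1 gave 2 genes, and a 1.5-fold difference or more together with an unadjusted p under 0.05 gave 3. Leaving out an array gave 0 to 1 calls, the single call being Sncg without sham array 1. The 1035 genes at an unadjusted p under 0.05 became 577, and the 1517 without overlap 885, when only the 4466 genes above the background range were fitted, a smaller set by construction. Over the fits that each left out an array, these counts ran from 822 to 1360 and from 2197 to 3073, as separation is easier with fewer arrays. Quantile normalization gave 693 and array weights 1469 genes at that p, and no fit with array weights passed an adjusted p under 0.05, though 8 genes were under 0.1.

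With the array number as a replicate block, which the correlations did not bear out as a pairing, 0 genes were called and 976 reached an unadjusted p under 0.05 (857 higher, 119 lower). The genes followed were the named ones picked by p or by difference in this same fit, and the fixed set. Of these 113 genes, 106 kept the sign of their difference in every setting. Those that turned were all of the fixed set. For genes picked by p or difference here, a kept sign is no separate support. Bdnf turned to -0.0140 with median centring, Gad2 to 0.0273 with array weights and Slc17a7 to -0.0199 with quantile normalization. The cause was not tested. Leaving out an array turned Ttr (-0.841 to 0.418), Bdnf (-0.0026 to 0.0041), Gad1 (-0.0076 to 0.135), Gad2 (-0.0358 to 0.0373), Gfap (-0.121 to 0.0555) and Fkbp5 (-0.0281 to 0.0552). Signals within the background range, as for Fos, Sncg and Mir674, limit what their rows can show.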

Other observations

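Transcript clusters without a single gene symbol were fitted with all others after the data had been seen. Of 45396 such rows none passed an adjusted p under 0.05 in limma. An unadjusted p under 0.05 was reached by 2020 of them, a share like that over every row (2939 of 68842). TC0100001637.rn.1 had the largest difference of the 3 with the smallest p. It read 6.80, 7.11 and 6.88 on the sham arrays and 5.77, 5.78 and 5.68 after TFS, a difference of -1.18 (adjusted p = 0.836) that exceeds that of every named gene tested. TC0100003998.rn.1 read 5.26, 5.31 and 5.22 against 4.90, 4.88 and 4.90, and TC0100001622.rn.1 differed by -0.31. No gene is given for these rows here.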
